A study of Mus musculus with 20 samples.

Results

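The receptors for serotonin, dopamine, noradrenaline, acetylcholine and histamine were encoded by 52 of the 55487 genes counted in each library. They were chosen by gene symbol: the Htr, Adra, Adrb, Chrm, Chrn and Hrh families, and Drd3, Drd4 and Drd5 of the dopamine receptors, without Drd1 and Drd2. The set held 14 serotonin, 3 dopamine, 9 adrenergic, 5 muscarinic, 17 nicotinic and 4 histamine entries; 51 were receptor genes and the remaining entry was Chrna1os, an antisense transcript named for its position opposite Chrna1. The measurements came from poly(A) RNA of the hippocampus and cortex of outbred NMRI mice, sequenced from a single end. All mice had undergone olfactory bulbectomy, the surgical removal of the olfactory bulbs, and from day 14 after it received a protein through the nose once per day for 21 days. The groups were hippocampus with YB-1 (6.4 μg), hippocampus with HSP70 (4 μg), cortex with YB-1 (6.4 μg) and cortex with HSP70 (4 μg), with 5 libraries each. YB-1 is a protein that binds DNA and RNA and HSP70 is a heat shock chaperone; both were recombinant. No group without bulbectomy and none without a protein was analysed here, so a higher level with YB-1 and a lower level with HSP70 cannot be told apart. The labels give neither the age and sex of the mice nor the extent of the cortical dissection nor the animal behind each library, and the p-values measure the spread between these libraries only.

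These transmitters reach the forebrain mostly through long axons of small cell groups: serotonin from the raphe, noradrenaline from the locus coeruleus, dopamine from the midbrain, histamine from the posterior hypothalamus and acetylcholine from the basal forebrain. The messenger RNA of a receptor is found in the cell bodies of the neurons and glia that receive the signal, while the messenger RNA of the enzymes that make the transmitter lies mainly in the distant cell groups. Most of the receptors are coupled to G proteins, which raise cyclic AMP (Gs), lower it (Gi) or activate phospholipase C (Gq). The nicotinic receptors and the Htr3 receptors are instead ion channels built of several subunits. In bulk tissue, fewer cells that carry a receptor and less of its RNA per cell cannot be told apart.

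The libraries held 6414215 to 15148078 reads assigned to genes. The hippocampal libraries held 7236195 to 10166968 reads with YB-1 and 7756835 to 13053910 with HSP70. The cortical libraries held 6414215 to 10763465 with YB-1 and 12283392 to 15148078 with HSP70, so that depth and treatment cannot be told apart in the cortex. Levels are given as CPM, reads of a gene relative to the assigned reads of all genes that passed the filter on low counts, scaled between libraries by TMM. The tissue labels were checked against marker genes: 10 of the 11 hippocampal markers tested were higher in the hippocampal libraries, 9 of the 14 cortical markers tested were lower there, and 3 (Fezf2, Tshz2 and Scnn1a) were higher. Summed over the list, the hippocampal markers lay between 821.3 and 1187 CPM in hippocampal libraries and between 291.8 and 533.2 CPM in cortical libraries. Markers of other tissue also differed between the tissues: 8 of 10 thalamic markers were higher in hippocampus and 0 lower (median log2 difference 1.45), and 11 of 11 oligodendrocyte markers were higher (median 1.20). Their part in the receptor differences was not tested. Single libraries differed further. The summed level of 10 thalamic markers was 470.2 and 387.5 CPM in hippocampal YB-1 replicates 3 and 5 and 559.5 CPM in hippocampal HSP70 replicate 4, against 175.8 to 265.6 CPM in the other 7 hippocampal libraries and 86.46 to 110 CPM in the cortical libraries. The summed level of 12 markers of striatal projection neurons was 886.4 CPM in cortical YB-1 replicate 4, against 251.8 to 420.7 CPM in the other 9 cortical libraries. Results are also given without these 4 libraries, which were singled out after their marker values were seen.

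The receptor genes were mostly transcribed at low levels. Averaged over all 20 libraries, 18 members lay under 1 CPM, 20 between 1 and 10 CPM and 14 at 10 CPM or more, and 33 had at least 1 read in every library. Hrh4, a histamine receptor of blood cells, and Htr3b, the partner subunit of Htr3a, had no read among the 204269128 assigned reads. A count of 0 there allows a level of up to 0.0147 CPM (3 reads over all libraries; counting error only). The muscle subunit genes Chrnd, Chrne and Chrng and the inner ear subunit gene Chrna9 had means of 0 to 0.0969 CPM in either tissue. Other muscle subunit genes were higher. Chrna1 averaged 0.860 CPM in hippocampus and 0.494 CPM in cortex, and Chrnb1 1.06 and 1.21 CPM. Chrna10, also an inner ear subunit gene, averaged 0.1225 CPM in hippocampus and 0.247 CPM in cortex.

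Per kilobase of exon, which allows genes to be compared with each other, the highest receptor gene in both tissues was Chrm1, the Gq-coupled muscarinic receptor of forebrain principal neurons, at 50.6 CPM per kb in hippocampus and 52.7 in cortex. Adra1d, a Gq-coupled noradrenaline receptor, led the adrenergic family at 28.4 CPM per kb in hippocampus and 17.4 in cortex. Hrh3, the Gi-coupled receptor that also restrains histamine release, led the histamine family at 23.2 in hippocampus and 29.8 in cortex. Chrna4, which with Chrnb2 forms the most abundant nicotinic channel of the brain, stood at 9.52 in hippocampus and 10.4 in cortex. The serotonin and dopamine families reached lower levels. Htr3a, the subunit of the serotonin-gated channel found in some interneurons, led the serotonin family at 4.90 in hippocampus and 3.96 in cortex. The leading dopamine receptor gene of the 3 considered was Drd5 in hippocampus, at 1.02 CPM per kb, and Drd4 in cortex, at 0.584 CPM per kb.

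**Figure D1:**
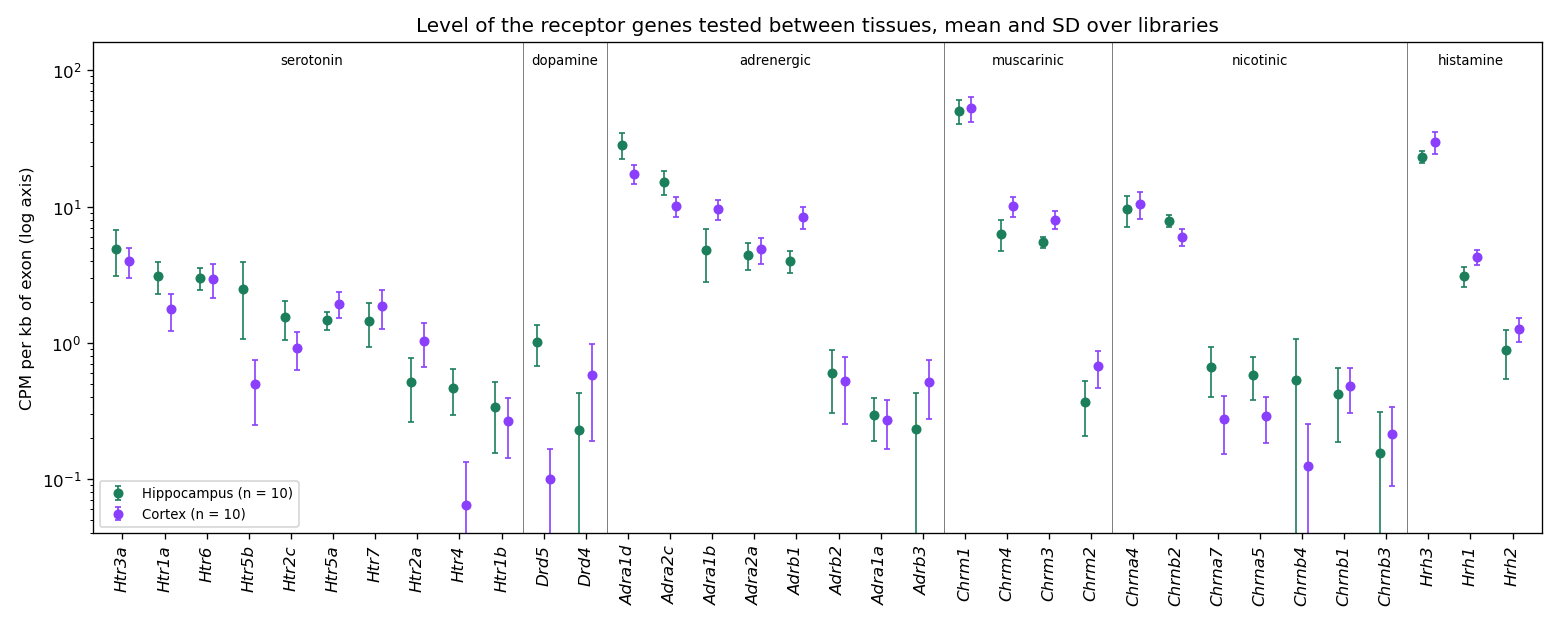
Mean level of each of the 34 receptor genes that could be tested between tissues, in CPM per kilobase of exon on a log axis, with hippocampus and cortex side by side (10 libraries each) and bars of 1 SD that are cut at the foot of the axis where they reach below it. Chrm1 is highest in both tissues, and the gaps between tissues are widest for Drd5, Htr4 and Htr5b.

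The first comparison asks how receptor transcription differs between hippocampus and cortex, averaged over both treatments. Of the 34 members tested, 11 were higher and 9 were lower in hippocampus at an adjusted p under 0.05 (edgeR's quasi-likelihood test with Benjamini-Hochberg adjustment over all genes), which is 58.8% of those tested. Among all 14616 genes tested, 15.9% were called, 8.55% higher and 7.32% lower. At an unadjusted p under 0.05 there were 23 members (67.6%), against 26.8% of all genes. In the YB-1 libraries alone 9 of 28 members tested were called, against 5.66% of all genes in that fit. In the HSP70 libraries alone 9 of 35 were called, against 8.01% of all genes. The members' median absolute log2 difference was 0.564, against 0.189 over all genes. The 18 members not tested, among them Chrna3 and Chrm5, had means of 0 to 0.883 CPM over all libraries. Hippocampal and cortical libraries did not overlap for Drd5 and Htr4, which were higher in hippocampus, nor for Adrb1, which was lower. The other 31 tested members overlapped between the tissues. The share of all genes without overlap was not computed, so this count has no background to be read against. Replicate numbers in the labels were taken to pair the tissues, although the labels do not name the animals. Libraries of both tissues with the same number deviated together from their group means. The direction in each of the 10 such pairs is given below. The share of all genes with the same direction in every pair was not computed, so these counts have no background either.

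Dopamine receptors moved in opposite directions between the tissues. Drd5 is the Gs-coupled receptor of the same class as Drd1. Its level in the hippocampal libraries was 1.35 CPM at the lowest, 3.12 at the median and 5.11 at the highest, against 0.0760, 0.275 and 0.808 CPM in the cortical libraries. Every hippocampal library was above every cortical library, which also fixes the direction in all 10 pairs. The difference was 3.30 ± 0.34 on the log2 scale (SE; 9.83-fold; edgeR adjusted p = 8.84e-08), and rested on 294 reads in hippocampus and 35 in cortex. Without the 4 libraries with high markers of other regions it was 3.27. In the mouse annotation 48.57% of the exon bases of Drd5 lie opposite exons of Gm26560; no source used here states whether the counting was by strand, so reads of Drd5 and Gm26560 cannot be told apart.

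Drd4 is Gi-coupled, of the same class as Drd2. It stood at 0 CPM at the lowest, 0.688 at the median and 2.25 at the highest in hippocampus, against 0.184, 1.75 and 5.45 CPM in cortex. The ranges overlapped, although the level was lower in hippocampus in 10 of 10 pairs. Its log2 difference was -1.36 ± 0.47 (SE; edgeR adjusted p = 0.0488). This call was lost in 18 of the 20 fits that left out a single library; without cortical YB-1 replicate 1, which had the highest level, the difference was -1.03 (adjusted p = 0.16, edgeR). Drd3 was not tested and averaged 0.0378 CPM in hippocampus and 0.0432 CPM in cortex.

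Of the 10 serotonin receptor genes tested, 4 were higher and 1 was lower in hippocampus. The widest gaps among them were those of Htr4 and Htr5b. Htr4 is Gs-coupled. It lay at 1.12 CPM at the lowest, 2.37 at the median and 3.33 at the highest in hippocampus, against 0, 0.195 and 0.893 CPM in cortex. No library of a tissue crossed into the range of the other, which also fixes the direction in all 10 pairs. The difference was 2.71 ± 0.44 on the log2 scale (6.53-fold; edgeR adjusted p = 6.29e-05), from 207 reads in hippocampus and 40 in cortex. Htr5b, a receptor that works in rodents and is a pseudogene in humans, lay at 1.82, 4.46 and 10.5 CPM in hippocampus at the lowest, median and highest, against 0.404, 0.882 and 1.90 CPM in cortex. Its ranges just met, with the lowest hippocampal library under the highest cortical one, and 10 of 10 pairs were higher in hippocampus. The log2 difference was 2.32 ± 0.33 (edgeR adjusted p = 1.3e-05).

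Smaller differences separated Htr1a, Htr2c and Htr2a. Htr1a, the Gi-coupled receptor found on raphe neurons as an autoreceptor and on hippocampal pyramidal cells, averaged 13.9 ± 3.7 CPM in hippocampus and 7.91 ± 2.41 CPM in cortex (SD, n = 10 each), and was higher in hippocampus in 9 of 10 pairs (log2 difference 0.81 ± 0.18; edgeR adjusted p = 0.00233). Htr2c, a Gq-coupled receptor, averaged 14.4 ± 4.7 CPM in hippocampus and 8.55 ± 2.63 CPM in cortex, also higher in 9 of 10 pairs (log2 difference 0.74 ± 0.18; adjusted p = 0.00549, edgeR). The ranges of both genes overlapped between the tissues. Htr2c is also a gene of the choroid plexus, the secretory tissue of the brain's ventricles. All 12 choroid plexus markers tested were higher in the hippocampal libraries, with a summed level of 142.1 to 1121 CPM with YB-1 and 40.85 to 1781 CPM with HSP70 there, against 11.38 to 168.3 CPM in cortex. Its defining gene Ttr was highest in hippocampal HSP70 replicate 5, at 1281 CPM, where Htr2c was at 10.8 CPM, and lowest in hippocampal HSP70 replicate 3, at 24.2 CPM, where Htr2c was at 13.6 CPM. Htr2c was highest in hippocampal HSP70 replicate 4, at 24.4 CPM, where the choroid plexus markers summed to 835.2 CPM. The next highest were HSP70 replicate 1 (18.9 CPM, sum 59.92 CPM) and YB-1 replicate 4 (17.6 CPM, sum 753.4 CPM). The part of choroid plexus in the tissue difference of Htr2c was not tested.

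Htr2a is the Gq-coupled receptor of cortical pyramidal neurons on which hallucinogens act. It was the only serotonin receptor gene called lower in hippocampus by edgeR with all libraries. It lay at 0.121 CPM at the lowest, 3.06 at the median and 5.26 at the highest in hippocampus, against 2.17, 5.54 and 9.15 CPM in cortex. The ranges overlapped, but all 10 pairs were lower in hippocampus (log2 difference -0.97 ± 0.30; edgeR adjusted p = 0.0254). The call was lost without YB-1 replicate 3 of either tissue (adjusted p = 0.0517 without the hippocampal library and 0.0544 without the cortical library, edgeR). Htr3a, Htr1b, Htr6, Htr5a and Htr7 did not pass the test between tissues. Of these, Htr6, a Gs-coupled receptor, had the closest means, at 6.96 ± 1.27 CPM in hippocampus and 6.92 ± 1.91 CPM in cortex. Htr5a was nearest the threshold, with a log2 difference of -0.39 ± 0.14 (edgeR adjusted p = 0.0601). This gene was lower in hippocampus in 8 of 10 pairs and was called by DESeq2.

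**Figure D2:**
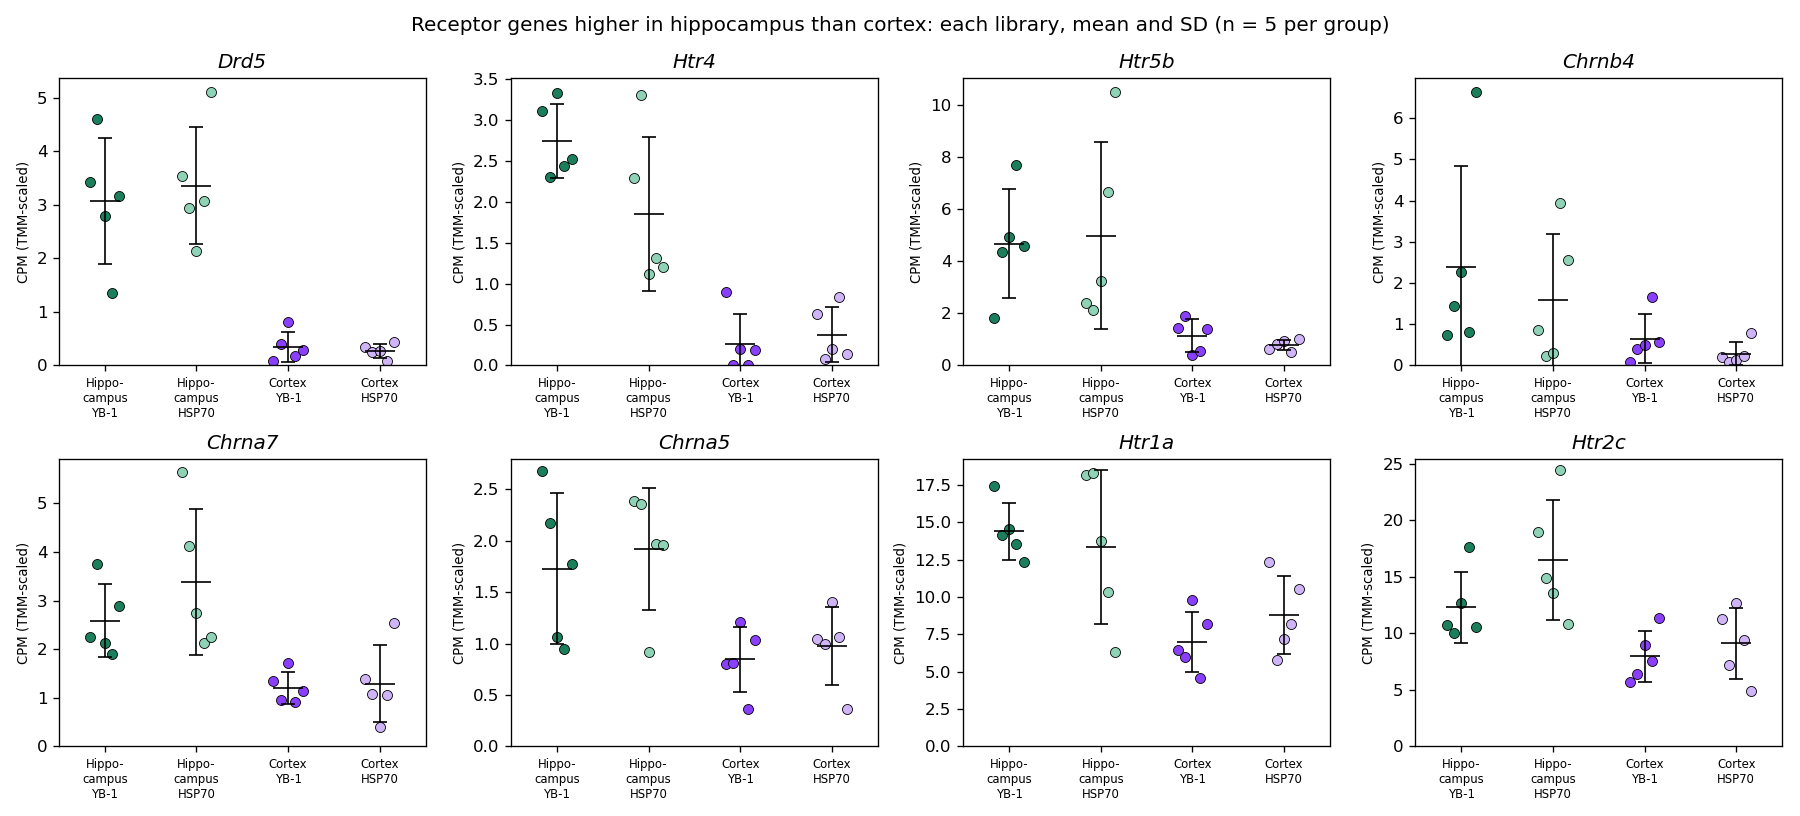
Level in CPM of the 8 receptor genes with the largest called differences above cortex, 1 panel per gene; each point is a library, the 4 columns are hippocampus with YB-1, hippocampus with HSP70, cortex with YB-1 and cortex with HSP70, and the bars are the mean and SD of 5 libraries. For Drd5 and Htr4 all hippocampal points lie above all cortical points, and in Chrnb4 the hippocampal points spread from 0.236 to 6.63 CPM.

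The adrenergic receptors held called members in both directions, 2 higher and 2 lower of 8 tested. Adrb1, the Gs-coupled receptor that prevails among β-adrenergic receptors in cortex, lay at 8.72 CPM at the lowest, 14.3 at the median and 16.1 at the highest in hippocampus, against 21.2, 27.6 and 37.8 CPM in cortex. The tissues did not overlap. The log2 difference was -1.06 ± 0.12 (2.09-fold lower in hippocampus; edgeR adjusted p = 6.3e-07). Adra1b, a Gq-coupled receptor, had a log2 difference of -0.98 ± 0.19 (adjusted p = 0.00046, edgeR) and was lower in hippocampus in 10 of 10 pairs. Within the α1 group, Adra1d had the opposite direction. It averaged 53.8 ± 11.5 CPM in hippocampus and 33.1 ± 5.4 CPM in cortex (log2 difference 0.70 ± 0.13), and was higher in hippocampus in 10 of 10 pairs (edgeR adjusted p = 0.000224). Adra2c, a Gi-coupled receptor, averaged 52.1 ± 10.2 CPM in hippocampus and 34.8 ± 5.9 CPM in cortex (log2 difference 0.58 ± 0.11), again in 10 of 10 pairs (edgeR adjusted p = 0.000604). Adra2a, the Gi-coupled autoreceptor of noradrenaline neurons, did not pass the test, at 21.4 ± 4.7 CPM in hippocampus and 23.4 ± 5.0 CPM in cortex. Adrb3, known mainly from fat tissue, was lower in hippocampus in 9 of 10 pairs and missed the threshold (log2 difference -1.08 ± 0.41; edgeR adjusted p = 0.0742); it was called when the replicate number was fitted as a block. Reads of Adrb3 share 24.85% of its exon bases with the opposite gene Gm45470.

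Adra1b and Chrna4, singled out after their values were seen, were highest in the hippocampal libraries with the highest thalamic markers. Adra1b was at 25.6 and 21.9 CPM in hippocampal YB-1 replicates 3 and 5 and at 28.6 CPM in HSP70 replicate 4, against 8.26 to 17.2 CPM in the other 7 hippocampal libraries. Chrna4 was at 58.0 and 60.8 CPM and at 70.6 CPM in the same libraries, against 34.2 to 48.5 CPM in the other 7. For both genes these were the 3 highest hippocampal libraries. Without the 4 libraries with high markers of other regions, the tissue difference of Adra1b was -1.41 ± 0.14 on the log2 scale, further from 0 than with all libraries. The part of thalamic tissue in these levels was not tested.

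All 4 muscarinic receptor genes tested had negative differences, and 3 passed the test. Chrm3, a Gq-coupled receptor, lay at 29.3 CPM at the lowest, 33.9 at the median and 38.8 at the highest in hippocampus, against 35.4, 50.01 and 61.3 CPM in cortex. The ranges overlapped only through 1 cortical library, YB-1 replicate 2, and 10 of 10 pairs were lower in hippocampus (log2 difference -0.55 ± 0.10; edgeR adjusted p = 0.000169). Chrm4, the Gi-coupled receptor abundant in striatum, averaged 9.11 ± 2.37 CPM in hippocampus and 14.5 ± 2.5 CPM in cortex (log2 difference -0.68 ± 0.14; adjusted p = 0.000904, edgeR). Its level in cortical YB-1 replicate 4, the library with the highest striatal markers, was 15.4 CPM, inside the range of the other cortical libraries. Chrm2, the Gi-coupled autoreceptor of cholinergic neurons, averaged 2.23 ± 0.97 CPM in hippocampus and 4.07 ± 1.23 CPM in cortex (log2 difference -0.86 ± 0.25; edgeR adjusted p = 0.0205). That call was lost without cortical YB-1 replicate 1 (adjusted p = 0.0528, edgeR) and at equal depth (0.0906). Chrm1 did not pass the test, at 328.5 ± 66.5 CPM in hippocampus and 341.8 ± 71.2 CPM in cortex. Chrm5 was too low to be tested with the filter on low counts, with 73 reads in hippocampus and 19 in cortex, and was called higher in hippocampus by DESeq2 and when all genes were kept.

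**Figure D3:**
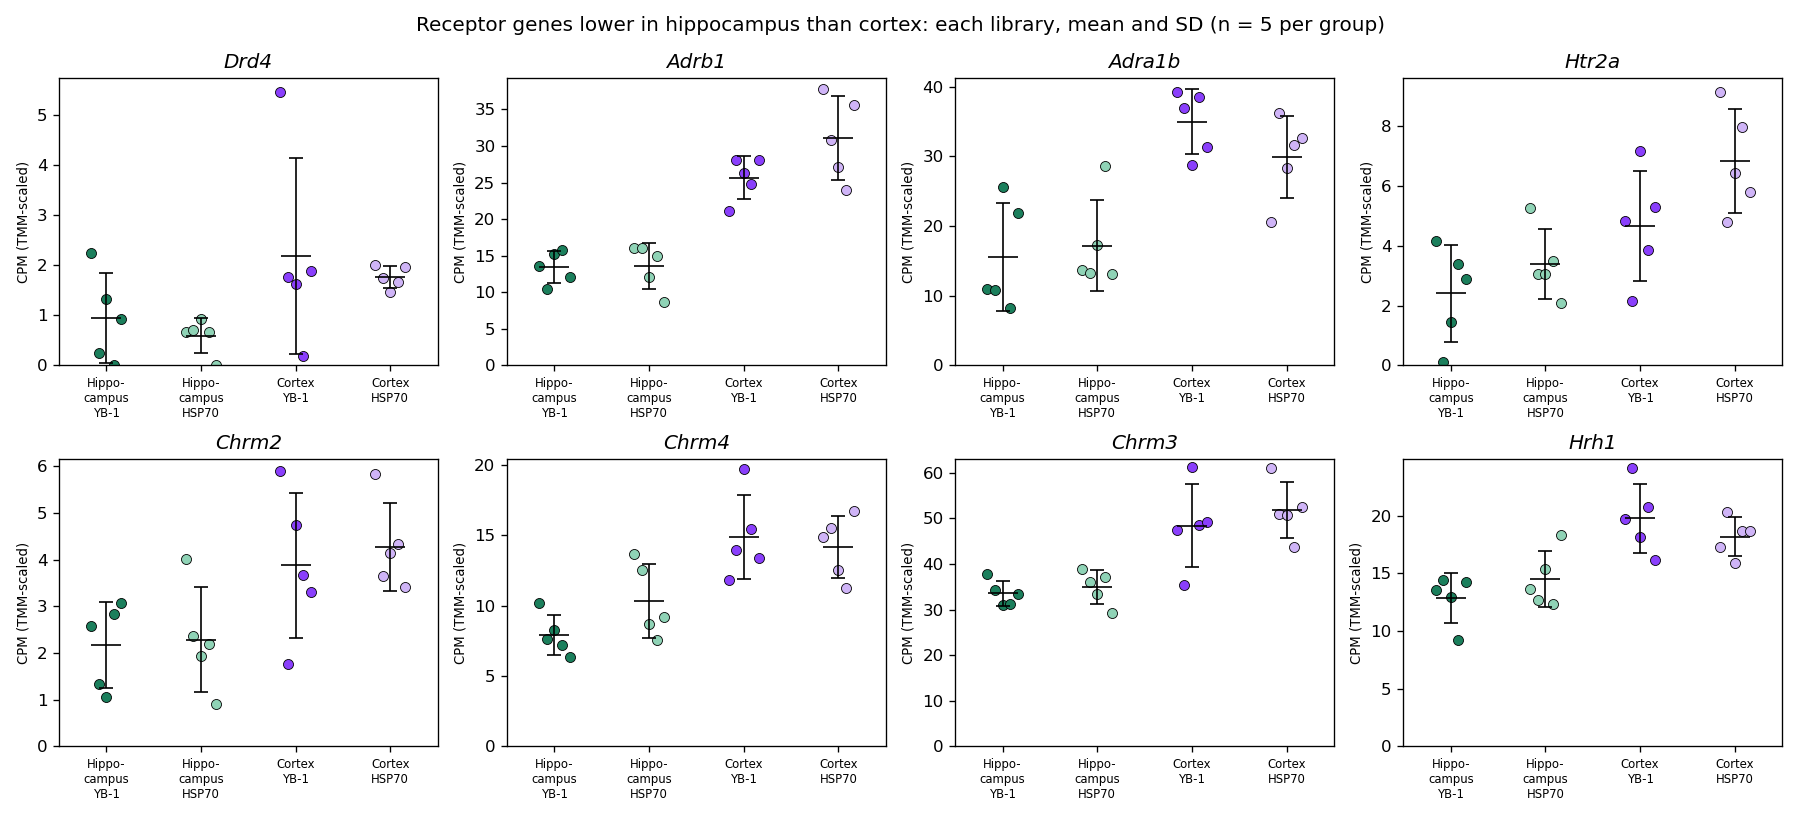
Level in CPM of the 8 receptor genes with the largest called differences below cortex, drawn as for the genes higher in hippocampus: points are libraries, columns are hippocampus with YB-1, hippocampus with HSP70, cortex with YB-1 and cortex with HSP70, and bars are mean and SD of 5 libraries. For Adrb1 every hippocampal point (8.72 to 16.1 CPM) lies below every cortical point (21.2 to 37.8 CPM); in the other 7 panels the tissues overlap.

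Among the nicotinic subunits, 4 of 7 tested were higher in hippocampus and none was lower. None of these 4 was called in the YB-1 libraries alone or in the HSP70 libraries alone. Chrna7, which forms channels from a single kind of subunit, lay at 1.90 CPM at the lowest, 2.50 at the median and 5.64 at the highest in hippocampus, against 0.401, 1.10 and 2.54 CPM in cortex (log2 difference 1.22 ± 0.28; edgeR adjusted p = 0.00302). It was higher in hippocampus in 9 of 10 pairs. Chrna5, an accessory subunit, averaged 1.82 ± 0.64 CPM in hippocampus and 0.910 ± 0.336 CPM in cortex (log2 difference 0.98 ± 0.30; adjusted p = 0.0228, edgeR); the call was lost without hippocampal YB-1 replicate 1 (0.0579). Chrnb2, the partner of Chrna4, averaged 65.9 ± 6.7 CPM in hippocampus and 50.2 ± 7.0 CPM in cortex, higher in 10 of 10 pairs (log2 difference 0.39 ± 0.09; edgeR adjusted p = 0.00266). For Chrnb2, 16.29% of the exon bases lie opposite exons of Adar. Chrna4 itself did not pass the test, at 47.8 ± 12.01 CPM in hippocampus and 52.4 ± 11.7 CPM in cortex.

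Chrnb4, with Chrna3 the main nicotinic receptor of autonomic ganglia and of the medial habenula, had uneven levels. Its hippocampal levels were 0.749, 1.45, 2.27, 0.812 and 6.63 CPM with YB-1 and 0.860, 0.236, 0.306, 3.94 and 2.56 CPM with HSP70 (replicates 1 to 5). The cortical levels were 0.0893, 0.407, 0.505, 1.65 and 0.566 CPM with YB-1 and 0.208, 0.0827, 0.134, 0.228 and 0.798 CPM with HSP70. The tissue difference was 2.21 ± 0.56 on the log2 scale (edgeR adjusted p = 0.00674), with overlapping ranges and 9 of 10 pairs higher in hippocampus. The gene fell under the filter on low counts once the 4 libraries with high markers of other regions were left out, and also once all libraries were thinned to equal depth, and had no test in either case. Gpr151, a gene that marks the habenula, was at 1.39, 0.846, 1.60, 1.08 and 3.64 CPM in the hippocampal YB-1 libraries and at 0.764, 0.354, 0.713, 5.84 and 2.56 CPM in the hippocampal HSP70 libraries. The 3 highest hippocampal libraries for Gpr151, YB-1 replicate 5 and HSP70 replicates 4 and 5, were also the 3 highest for Chrnb4, for Chrna3 (1.68, 2.63 and 4.06 CPM) and for Chrnb3 (2.24, 1.90 and 2.85 CPM). Of the 8 habenular markers listed, 6 were tested between tissues and 3 were higher and 1 lower in hippocampus. Their summed level was 84.63 to 149.7 CPM with YB-1 and 97.19 to 200.2 CPM with HSP70 in hippocampus, against 49.23 to 60.31 CPM with YB-1 and 61.26 to 69.3 CPM with HSP70 in cortex. Library by library the sum did not follow Gpr151: it was 145.2 CPM in YB-1 replicate 5, 200.2 CPM in HSP70 replicate 4 and 108 CPM in HSP70 replicate 5, and 157.1 CPM in HSP70 replicate 2, where Chrnb4 was at 0.236 CPM. Pou4f1, a transcription factor gene of the habenula, averaged 0.611 and 0.548 CPM in the hippocampal YB-1 and HSP70 libraries, against 0 in every cortical YB-1 library and 0.0669 to 0.581 CPM in the cortical HSP70 libraries. Gpr151 was singled out from the list after its values were seen. The part of habenular tissue in the levels of Chrnb4 was not tested.

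**Figure D4:**
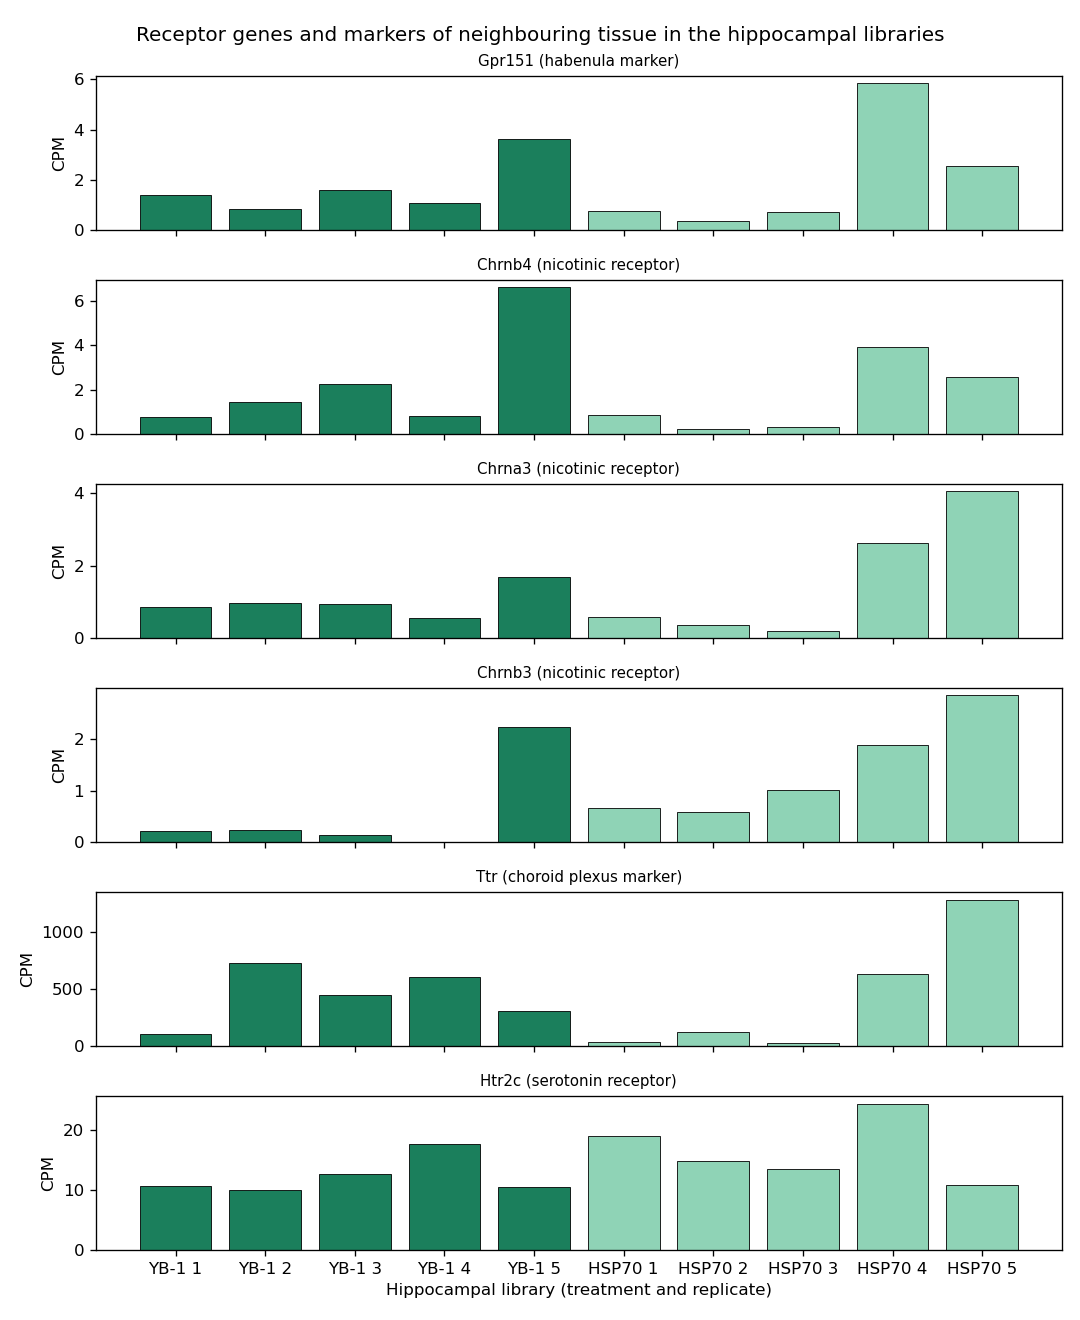
Level in CPM of the habenular marker Gpr151, the nicotinic subunit genes Chrnb4, Chrna3 and Chrnb3, the choroid plexus marker Ttr and the serotonin receptor gene Htr2c in each of the 10 hippocampal libraries, YB-1 replicates 1 to 5 left of HSP70 replicates 1 to 5; bars start at 0. Gpr151, Chrnb4, Chrna3 and Chrnb3 are highest in YB-1 replicate 5 and HSP70 replicates 4 and 5. Ttr is highest in HSP70 replicate 5 (1281 CPM) and Htr2c in HSP70 replicate 4 (24.4 CPM). The part of choroid plexus in the Htr2c levels was not tested.

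Of the histamine receptor genes, Hrh1 and Hrh3 were lower in hippocampus in the fit with all libraries. Hrh1, a Gq-coupled receptor, averaged 13.7 ± 2.3 CPM in hippocampus and 19.0 ± 2.4 CPM in cortex (log2 difference -0.47 ± 0.11; edgeR adjusted p = 0.0038), lower in 10 of 10 pairs. Hrh3 averaged 73.1 ± 7.9 CPM in hippocampus and 93.7 ± 17.3 CPM in cortex (log2 difference -0.36 ± 0.10; adjusted p = 0.0148, edgeR), lower in 9 of 10 pairs. The call of Hrh3 was lost without the 4 libraries with high markers of other regions, and both calls were lost in the YB-1 and in the HSP70 libraries alone. Hrh2, which is Gs-coupled, averaged 5.27 ± 2.07 CPM in hippocampus and 7.49 ± 1.49 CPM in cortex and missed the threshold (edgeR adjusted p = 0.0995). It was lower in hippocampus in all 10 pairs and was called with the replicate number as a block.

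The promoters of receptor genes called in opposite directions are shown so that their base composition can be seen beside the levels. The sequences come from RefSeq on GRCm38.p6, an earlier build than the one the reads were counted on, and run from 250 bases before to 50 bases after the annotated start, 5′ to 3′ on the strand of the gene. Capitals mark the GC box GGGCGG on either strand, a motif bound by the Sp factors. The genes shown are 2 in each direction from the called members that have a single annotated promoter. They were not chosen by p alone. Htr5b, Htr4 and Adra1d, all higher in hippocampus, had a smaller p than Adra2c (edgeR) and were left out. Drd5 (chr5:38319259-38319558, plus strand) and Adra2c (chr5:35278316-35278615, plus strand) were higher in hippocampus, and Adrb1 (chr19:56721867-56722166, plus strand) and Chrm3 (chr13:10360754-10361053, minus strand) were lower.
Drd5: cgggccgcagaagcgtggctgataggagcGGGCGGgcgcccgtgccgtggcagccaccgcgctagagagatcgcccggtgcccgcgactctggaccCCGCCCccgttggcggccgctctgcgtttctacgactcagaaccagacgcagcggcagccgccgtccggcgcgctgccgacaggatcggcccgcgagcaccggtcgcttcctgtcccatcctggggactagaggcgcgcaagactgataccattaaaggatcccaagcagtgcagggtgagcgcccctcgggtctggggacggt
Adra2c: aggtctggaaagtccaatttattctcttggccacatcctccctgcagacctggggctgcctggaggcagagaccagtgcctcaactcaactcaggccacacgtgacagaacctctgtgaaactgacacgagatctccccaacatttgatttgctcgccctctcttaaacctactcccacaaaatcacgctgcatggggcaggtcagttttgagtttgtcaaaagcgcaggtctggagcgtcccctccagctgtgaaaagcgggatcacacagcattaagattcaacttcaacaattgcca
Adrb1: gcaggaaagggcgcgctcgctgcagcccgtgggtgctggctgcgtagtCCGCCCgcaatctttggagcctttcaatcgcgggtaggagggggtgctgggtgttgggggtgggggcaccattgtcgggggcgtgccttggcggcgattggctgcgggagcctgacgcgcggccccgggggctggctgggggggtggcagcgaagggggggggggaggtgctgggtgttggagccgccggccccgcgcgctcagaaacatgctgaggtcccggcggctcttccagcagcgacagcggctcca
Chrm3: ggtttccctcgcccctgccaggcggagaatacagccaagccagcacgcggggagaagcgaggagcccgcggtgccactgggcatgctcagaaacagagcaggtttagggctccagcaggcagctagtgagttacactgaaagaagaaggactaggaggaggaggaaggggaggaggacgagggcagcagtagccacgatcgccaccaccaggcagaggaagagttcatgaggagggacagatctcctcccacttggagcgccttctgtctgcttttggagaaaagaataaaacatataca
The Drd5 window held 70.3% G and C and 2 GC boxes, and the Adrb1 window 72.3% and 1 GC box. The Adra2c window held 51.3% G and C and the Chrm3 window 57.3%, and neither held a GC box. Each direction thus had a promoter with and a promoter without the motif. Of the 52 members, 39 had a promoter in the table, with 47 starts in all; 26 of these windows (55.3%) held a GC box, against 35.7% of the 32851 promoters of the same length. The TATA box TATAAA was present in 2 member windows (4.26%), against 13.6% of all promoters. The cyclic AMP response element TGACGTCA was present in 0 member windows, against 1.79% of all promoters, and TTCAGCACC, part of the site of the neuronal repressor REST, in 0 against 0.371%. Each motif was searched on both strands; a match describes the letters of the window only. The median G and C content was 59.0% in the member windows and 52.7% in all promoters.

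The second comparison asks whether the receptor genes differed between mice given YB-1 and mice given HSP70 in the hippocampus. None of the 30 members tested passed the threshold, and neither did any of the 13723 genes tested (0% called; edgeR). At an unadjusted p under 0.05 there was 1 member, Adra2a, which is 3.33% of the members tested, against 329 genes, or 2.4%, overall. DESeq2 and limma-voom called 0 members as well. The members' log2 differences ran from -0.60 to 0.59 with standard errors of 0.12 to 0.74, and 20 were negative and 10 positive; their median was -0.08, against -0.0030 over all genes.

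Adra2a was at 17.98, 15.4, 17.1, 24.0 and 18.8 CPM with YB-1, against 26.5, 23.6, 26.3, 27.9 and 16.5 CPM with HSP70. Of the HSP70 libraries, 4 were higher than 4 of the YB-1 libraries, and the ranges overlapped through YB-1 replicate 4 and HSP70 replicate 5. The log2 difference was -0.38 ± 0.18 (SE; edgeR adjusted p = 1). Htr2c was at 10.7, 10.04, 12.7, 17.6 and 10.6 CPM with YB-1, against 18.9, 14.9, 13.6, 24.4 and 10.8 CPM with HSP70, and overlapped likewise (log2 difference -0.43 ± 0.23). Without HSP70 replicate 4 this difference was -0.25. Chrm4 was at 10.2, 7.62, 8.27, 7.17 and 6.35 CPM with YB-1, against 13.7, 12.5, 8.66, 7.53 and 9.17 CPM with HSP70. Its log2 difference was -0.38 ± 0.22, less than 2 standard errors from 0.

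On the higher side, Htr4 was at 3.10, 2.30, 3.33, 2.44 and 2.52 CPM with YB-1, against 2.29, 3.30, 1.12, 1.31 and 1.20 CPM with HSP70. The 5 YB-1 libraries lay above 4 of the 5 HSP70 libraries, and HSP70 replicate 2 was inside the YB-1 range. The log2 difference was 0.57 ± 0.37, and 0.87 without HSP70 replicate 2. Adra1a, a Gq-coupled receptor, averaged 2.92 ± 1.10 CPM with YB-1 and 2.21 ± 0.51 CPM with HSP70 (SD, n = 5 each), a log2 difference of 0.39 ± 0.34. Without YB-1 replicate 3 that difference was 0.23 and without replicate 2 it was 0.25. The Chrnb4 levels given above had a log2 difference of 0.59 ± 0.74. This difference was -0.28 without YB-1 replicate 5 and 1.35 without HSP70 replicate 4, the libraries with the most Chrnb4 reads of their groups (71 and 54). Leaving out HSP70 replicate 2 or 3 gave 0.33 and 0.32. The intervals of several abundant members were narrow: the approximate 95% interval of the log2 difference was -0.22 to 0.43 for Chrm1, -0.39 to 0.08 for Hrh3 and -0.18 to 0.30 for Chrnb2.

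**Figure D5:**
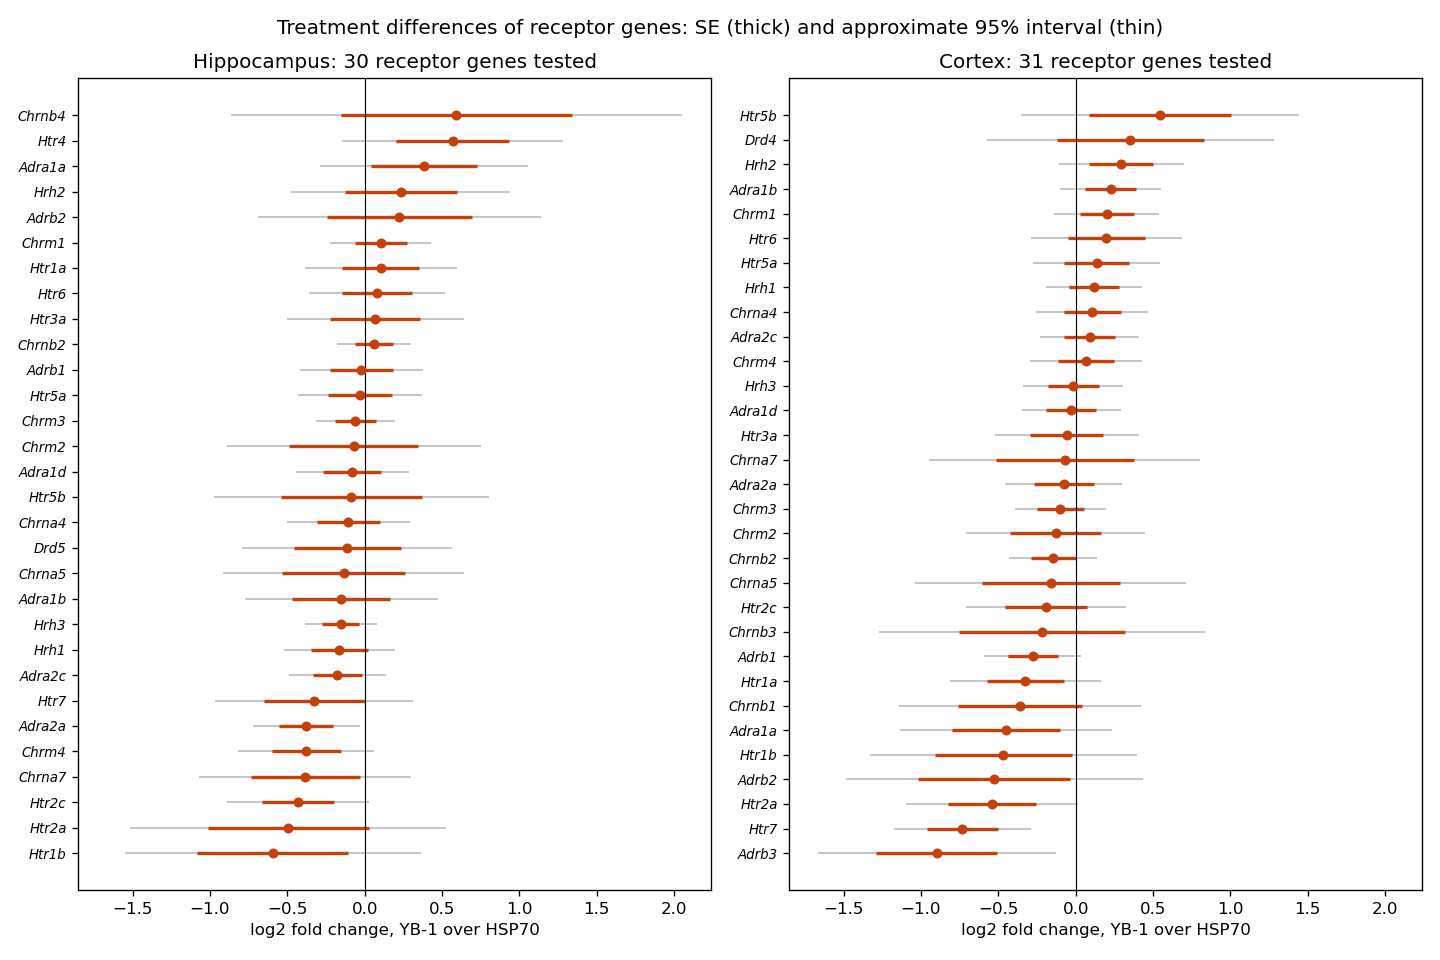
Log2 difference between YB-1 and HSP70 of each receptor gene tested in hippocampus (left, 30 genes) and in cortex (right, 31 genes), with its standard error as a thick bar and an approximate 95% interval as a thin bar; positive values mean higher with YB-1. Most intervals span 0, and those of Adra2a in hippocampus and of Htr7 and Adrb3 in cortex do not, before adjustment for the number of genes tested.

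In the cortex, none of the 31 members tested passed the threshold, and again 0% of all 14114 genes did (edgeR). At an unadjusted p under 0.05 there were 2 members, Htr7 and Adrb3, which is 6.45% of those tested, against 774 genes, or 5.48%, overall. DESeq2 and limma-voom called 0 members, and 4 and 2 genes in all. The members' log2 differences ran from -0.90 to 0.54, with 20 negative and 11 positive and a median of -0.08, against 0.0050 over all genes. With all libraries thinned to equal depth 0 members were called. The 15 interneuron markers tested all had negative differences in this comparison (median -0.39; 0 called, 5 at an unadjusted p under 0.05), with a summed level of 1271 to 1746 CPM with YB-1 and 1624 to 1976 CPM with HSP70. Their part in the receptor values was not tested.

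Htr7, a Gs-coupled serotonin receptor, was at 4.11, 5.70, 5.35, 2.94 and 5.57 CPM with YB-1, against 9.63, 6.87, 8.63, 7.30 and 7.11 CPM with HSP70. Every YB-1 library was below every HSP70 library. Htr7 is named here because it had the smallest p of the members tested in cortex. The share of all genes separated in this way was not computed. The log2 difference was -0.73 ± 0.23 (SE; 1.66-fold lower; edgeR adjusted p = 0.858), and stayed between -0.81 and -0.62 when single libraries were left out. In hippocampus the same gene had a difference of -0.33 ± 0.33, with overlapping groups at 2.89, 2.30, 5.87, 5.28 and 5.41 CPM with YB-1, against 5.92, 4.84, 3.06, 5.33 and 8.27 CPM with HSP70. The interaction for this gene was 0.40 ± 0.39 on the log2 scale and was not called. Adrb3 was at 1.07, 0.407, 1.11, 1.10 and 2.26 CPM with YB-1, against 2.36, 1.49, 2.14, 2.81 and 2.54 CPM with HSP70. YB-1 replicate 5 lay within the HSP70 range and the other 4 YB-1 libraries below it (log2 difference -0.90 ± 0.39; edgeR adjusted p = 0.858). Htr2a averaged 4.66 ± 1.84 CPM with YB-1 and 6.83 ± 1.73 CPM with HSP70 (SD, n = 5 each), with overlapping ranges and a log2 difference of -0.54 ± 0.28.

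Higher means with YB-1 in the cortex were small beside their errors. Hrh2 averaged 8.23 ± 1.57 CPM with YB-1 and 6.74 ± 1.06 CPM with HSP70, a log2 difference of 0.29 ± 0.21, which was 0.18 without YB-1 replicate 1. Adra1b averaged 34.9 ± 4.6 CPM with YB-1 and 29.9 ± 5.9 CPM with HSP70 (log2 difference 0.23 ± 0.17), with 0.11 without HSP70 replicate 1, its lowest library. Htr5b averaged 1.14 ± 0.64 CPM with YB-1 and 0.787 ± 0.205 CPM with HSP70 (log2 difference 0.54 ± 0.46), with 0.31 without YB-1 replicate 2.

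The interaction, which asks whether the difference between YB-1 and HSP70 differed between hippocampus and cortex, was tested for 34 members. It was called for 0 of them and for 0% of the 14616 genes tested (edgeR), and 0 members and 227 genes (1.55%) had an unadjusted p under 0.05; DESeq2 and limma-voom called 0 members. The smallest p among positive interactions was that of Adra1a. Its log2 difference was 0.39 in hippocampus and -0.45 in cortex (interaction 0.84 ± 0.48). For Htr1a the values were 0.10 in hippocampus and -0.32 in cortex (interaction 0.42 ± 0.36), and the interaction was 0.25 without hippocampal HSP70 replicate 5 and 0.27 without cortical HSP70 replicate 1. Among negative interactions, Chrm4 was at -0.38 in hippocampus and 0.07 in cortex (interaction -0.45 ± 0.28). Hrh1 was at -0.16 in hippocampus and 0.12 in cortex (interaction -0.28 ± 0.22), with -0.18 without hippocampal YB-1 replicate 4 and -0.19 without hippocampal HSP70 replicate 5.

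The genes around the receptors were read from lists of the same pathways. Between tissues, 2 of 8 tested genes of transmitter synthesis and packaging were higher in hippocampus and 0 lower (25%). They were Hdc, the enzyme that makes histamine, at 1.10 ± 0.25 on the log2 scale, and Ddc, the enzyme that makes dopamine and serotonin from their precursors, at 0.98 ± 0.22. The rate-limiting enzyme genes Tph2 (serotonin) and Th (dopamine and noradrenaline) had group means under 1 CPM and under 2 CPM in both tissues. In hippocampus they averaged 0.594 and 1.73 CPM with YB-1 and 0.393 and 1.91 CPM with HSP70. Of 8 tested genes of uptake and breakdown, 2 were higher and 0 lower: Slc29a4, a low-affinity monoamine transporter, at 1.51 ± 0.23, and Ache, which breaks down acetylcholine. Slc29a4 is also a gene of the choroid plexus, whose 12 markers were all higher in hippocampus, and that part was not tested.

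Downstream of the receptors, 2 of 12 G protein alpha subunit genes were higher (Gna14 and Gna12) and 2 lower (Gnal and Gnaz) in hippocampus. Of 17 effector genes tested 1 was higher, the adenylyl cyclase gene Adcy3, and 4 were lower, led by Plcb4, a phospholipase C, at -1.10 ± 0.27, and Kcnj9, a potassium channel opened by Gi-coupled receptors, at 28.2 ± 3.8 and 33.7 ± 4.7 CPM in hippocampus with YB-1 and HSP70, against 51.5 ± 11.4 and 62.7 ± 7.6 CPM in cortex. Of 13 desensitisation genes, 1 was higher (Rgs8) and 4 were lower, led by Rgs4 and Rgs7, which shorten G protein signals. Of 10 tested accessory genes of nicotinic receptors, Lypd1 was higher and Lypd6b lower. The called shares of these lists ran from 20% to 38.5%, beside 15.9% of all genes. None of the genes in these lists was called between YB-1 and HSP70 in either tissue.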

How the data were processed

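Poly(A) RNA (integrity number 8 or higher) was made into 20 libraries with a directional kit, per the labels' protocols, 5 for each pair of tissue and treatment. The authors deposited whole-number counts of reads for each Ensembl gene. Trimmomatic, STAR and featureCounts with GRCm39 are named in the submitters' processing notes. Neither the strand setting nor any tool's version is given in the sources used here. Library sizes exclude the 12 summary entries, of which reads outside genes took 2.45% to 4.58% and ambiguous reads took 4.12% to 4.58% of a library. Symbols and exon lengths came from GENCODE by Ensembl identifier (found for 99.4% of identifiers and 99.98% of assigned reads), and promoters from RefSeq on GRCm38.p6. Without a stated strand setting, genes that overlap on opposite strands cannot be told apart, which touches 11 members. Duplicated libraries were looked for and not found (chi-square per degree of freedom between libraries of a group 10.8 or more).

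The test was edgeR 4.0.16 in R 4.3.3 (TMM scaling, filterByExpr, robust quasi-likelihood fit, two-sided) with Benjamini-Hochberg adjustment over all tested genes; calls needed an adjusted p under 0.05. YB-1 was compared with HSP70 in each tissue alone, and the tissues and the interaction in a model of the 4 groups. The model was checked on simulated counts. The alternatives included DESeq2 1.42.0, limma 3.58.1 (voom with quality weights), other scalings, no filter, thinning to equal depth, the replicate block and leaving out each library. Same-numbered libraries of the 2 tissues deviated together from their group means, with correlations over 14616 genes of 0.207 to 0.394 with YB-1 and 0.198 to 0.624 with HSP70. The numbers were therefore taken to pair the tissues. Hippocampal YB-1 replicate 1 correlated most with cortical YB-1 replicate 5, and each other hippocampal library with the cortical library of its own number. The same check between treatments gave correlations of both signs, -0.283 to 0.496 in hippocampus and -0.135 to 0.167 in cortex, and the numbers were not taken to pair the treatments.

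The members, the pathway lists and the marker lists were chosen with earlier results of these data known. Statistics are given for the 8 called members with the largest tissue difference in each direction and a mean of at least 1 CPM, for the 3 members with the smallest p in each direction of each treatment comparison, for 2 in each direction of the interaction, and for the highest member of each family per kilobase; others are described by family. Approximate 95% intervals are 1.96 standard errors either side. Intervals and floors cover counting error or the spread between these libraries only.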

Additional observations from a re-analysis of the deposited data

Results flagged for a closer look

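Each of the 34 members tested between tissues was searched in each of the 4 groups for a library far from the other 4 of its group by Dixon's test. Of 136 groups, 11 (8.09%) held such a library. The limit of the test gives about 1 in 20 for normally distributed values. It was applied to CPM without a log scale, and some flagged genes had few reads, such as Drd4 with 0 to 9 in the hippocampal HSP70 libraries. The share over all genes was not computed, so 8.09% has no background to be read against.

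In the hippocampal YB-1 libraries, Chrnb4 was at 6.63 CPM in replicate 5 (others 0.749 to 2.27 CPM) and Chrnb3 at 2.24 CPM in the same library (others 0 to 0.242 CPM). Adrb3 was at 2.30 CPM in replicate 4 (others 0.121 to 0.560 CPM), and Hrh1 at 9.21 CPM in that library (others 12.9 to 14.4 CPM). In the hippocampal HSP70 libraries, Adra1b was at 28.6 CPM in replicate 4 (others 13.1 to 17.2 CPM). Htr3a was at 18.3 CPM in replicate 2 (others 6.87 to 9.27 CPM). Drd4 was at 0.0 CPM in replicate 5 (others 0.657 to 0.917 CPM), and Adrb3 at 0.150 CPM in that library (others 0.917 to 1.10 CPM).

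In the cortical YB-1 libraries, Htr3a was at 4.85 CPM in replicate 3 (others 8.54 to 9.34 CPM) and Htr4 at 0.893 CPM in replicate 1 (others 0 to 0.202 CPM). In the cortical HSP70 libraries, Chrnb4 was at 0.798 CPM in replicate 5 (others 0.0827 to 0.228 CPM). The 2 hippocampal libraries in which Chrnb4 and Adra1b stood apart also had summed thalamic markers of 387.5 and 559.5 CPM. The noncoding RNA Bc1 took 20.8% of assigned reads in hippocampal YB-1 replicate 4 and 20.3% in HSP70 replicate 5. It took 3.92% to 15.4% in the other hippocampal libraries, and 6.61% to 9.34% in those of them named above. Without Bc1 and immunoglobulin genes, the same 20 members were called between tissues. The part of thalamic tissue or of Bc1 in these outlying values was not tested.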

How the results depend on the processing

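Of the values recomputed under the alternatives, 816 kept their direction and their side of the threshold, 46 kept their direction and lost the call, and 1 changed sign. These numbers include treatment and interaction values, which were called in no fit. They leave out fits in which the member fell under the filter on low counts, as Chrnb4 did at equal depth. The value that changed sign was the hippocampal difference of Chrnb4 between YB-1 and HSP70, -0.285 without YB-1 replicate 5, against 0.59 with all libraries (neither called); leaving out each library in turn gave -0.285 to 1.353. The number of members called between tissues was 20, beside 15.9% of all genes. It was 9 in the YB-1 libraries alone (beside 5.66% of all genes) and 9 in the HSP70 libraries alone (beside 8.01%), fits with fewer libraries. The calls of Chrm2, Chrna5, Chrna7, Chrnb2, Chrnb4, Drd4, Hrh1, Hrh3 and Htr2c were lost in both. Those of Adra2c and Htr2a were lost in the YB-1 libraries alone only, and those of Chrm4 and Htr1a in the HSP70 libraries alone only. Leaving out 1 library at a time gave 18 to 21 called members, 18 to 20 of them among the 20; DESeq2 gave 24, limma-voom 22, thinning to equal depth 17 (without Chrm2, Chrnb4 and Drd4) and no filter on low counts 20 (18 of them shared). Without the 4 libraries with high markers of other regions, an alternative chosen after seeing the data, 14 remained, beside 11.3% of all genes called. The calls of Chrm2, Chrna5, Chrnb4, Drd4, Hrh3 and Htr2a were lost. Drd4 was the call lost most often. With the replicate block, 22 members were called between tissues, Adrb3 and Hrh2 being added and none lost, and 0 for the interaction. Between treatments the block also gave 0 calls in either tissue. The replicate numbers were not taken to pair the treatments, so that fit is no check of the treatment results. Between treatments 0 members were called under every alternative run. Chrnb4 between treatments in hippocampus was 1.84 with limma-voom. In the interaction, limma-voom gave 0.49 for Adra1a, 0.15 for Htr1a and -0.14 for Hrh1, and it gave 0.15 for Adra1a between treatments in hippocampus; Htr2c there was -0.19 without the libraries with high markers of other regions. Depth limits what can be tested: 18 members fell under the filter on low counts between tissues.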
